A study of Mus musculus with 63 samples.

Results

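Granins and the enzymes that process prohormones were followed in small-intestinal tumours of mice. The set was chosen by gene symbol and holds 8 of the 24766 genes of the expression table. It comprises the granins *Chga*, *Chgb*, *Scg2* and *Scg3*, the granin-like chaperone *Scg5*, the prohormone convertase *Pcsk1*, its inhibitor *Pcsk1n* and the carboxypeptidase *Cpe*. All 8 genes were present in the table, and all 8 passed the filter on low values (a mean normalised count of at least 10) in each comparison.

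The tumours came from 1 female and 1 male mouse of the genotype Apchet, so that mouse and sex cannot be told apart. According to the study, the mice carried Villin-creERT2, an inducible Cre recombinase active in the intestinal epithelium, a floxed *Apc* allele in the heterozygous state and the R26R-Confetti multicolour reporter. Per the labels, both mice received 4 mg of tamoxifen when older than 8 weeks and 200 mg per kg of the mutagen ENU (N-ethyl-N-nitrosourea) 10 days later, so no library is free of the *Apc* deletion or of ENU. Bulk RNA sequencing covered 20 tumours (10 per mouse) that had been microdissected into a larger, or major, and a smaller, or minor, clone, together with 23 undivided tumours, of which the female mouse gave 10 and the male mouse 13. Labels also give a small-intestinal segment, SI10, SI20 or SI30. The tumours are separate, but all come from these 2 mice, and p-values measure the spread between tumours, not between mice.

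Enteroendocrine cells are the scattered hormone-secreting cells of the gut epithelium. They store peptide hormones and amines in dense-core granules, whose matrix is built largely of granins, acidic proteins that aggregate with the cargo in the trans-Golgi network. There the prohormone convertases cut precursors after pairs of basic residues, and carboxypeptidase E trims the exposed basic residues from the new ends. Enteric neurons use the same machinery, and carboxypeptidase E is also found outside endocrine cells.

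Promoters are shown as a description of sequence. Several of the 8 genes varied together from tumour to tumour, and the part of the promoter motifs in this was not tested. The RefSeq promoter table (build GRCm38.p6, from 250 bases before to 50 after each start) matched 7 of the 8 genes, without *Cpe*. Each window was searched on both strands for the full cAMP response element TGACGTCA, for its core CGTCA, which is contained in the full element, and for the E-box CANNTG. The full element stood in 3 of the 7 windows (*Chgb*, *Scg2* and *Pcsk1*) and in 1.79% of all 32851 windows. Its core stood in 6 of 7, all but *Pcsk1n*, and in 20.8% of all windows. The E-box, the motif of basic helix-loop-helix factors, stood in 5 of 7 and in 72.3% of all windows. The last 100 bases before the start are printed for *Chga* (chr12:102554841-102554940, plus strand), *Chgb* (chr2:132781542-132781641, plus strand), *Scg2* (chr1:79440027-79440126, minus strand) and *Pcsk1* (chr13:75089757-75089856, plus strand), each 5′ to 3′ along the gene, with the element or its core in capitals. Shown are the 3 genes with the full element and *Chga*, the gene whose levels were closest to those of *Chgb*. *Scg5*, the next closest to both across undivided tumours (r = 0.80 with *Chga* and 0.78 with *Chgb*), is not printed. It had no full element, and its 3 cores lay outside the last 100 bases. The pairs among the 3 genes with the full element had r from 0.63 to 0.65 there.
*Chga*: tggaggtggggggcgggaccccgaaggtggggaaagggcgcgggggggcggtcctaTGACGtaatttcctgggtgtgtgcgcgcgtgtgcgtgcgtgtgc
*Chgb*: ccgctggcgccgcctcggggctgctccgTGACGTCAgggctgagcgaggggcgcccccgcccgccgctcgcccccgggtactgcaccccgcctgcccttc
*Scg2*: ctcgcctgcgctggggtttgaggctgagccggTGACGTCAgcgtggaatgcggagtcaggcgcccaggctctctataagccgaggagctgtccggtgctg
*Pcsk1*: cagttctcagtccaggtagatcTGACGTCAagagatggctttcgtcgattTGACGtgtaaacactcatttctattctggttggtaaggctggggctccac
Counted from the start site, with -1 the base just before it, the full element began at -72 in *Chgb*, -68 in *Scg2* and -78 in *Pcsk1*, where a separate core began at -50. In *Chga* the core alone was found, at -44. The cores at -50 and -44 lie on the opposite strand, so that their reverse complement stands in capitals. A match of letters is a description of the sequence, and binding was not measured.

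Levels were normalised counts: gene counts that the authors estimated with Salmon and scaled between libraries. To compare genes, each value was divided by the length of the canonical transcript in Gencode M39 (build GRCm39). Over the 63 libraries, the median level per kilobase was 483 for *Chgb*, 431 for *Chga* and 342 for *Cpe*, followed by 24.4 for *Scg2*, 23.3 for *Pcsk1*, 16.6 for *Pcsk1n*, 16.2 for *Scg5* and 4.90 for *Scg3*. The first 3 of these lay close together: *Chgb* exceeded *Chga* in 35 of 63 libraries, and *Chga* exceeded *Cpe* in 36 of 63. *Cpe* exceeded *Scg2* in 63 of 63. *Scg2* exceeded *Pcsk1* in 42 of 63, *Pcsk1* exceeded *Pcsk1n* in 49 of 63, *Pcsk1n* exceeded *Scg5* in 31 of 63 and *Scg5* exceeded *Scg3* in 58 of 63. The order of the leading genes depended on the length used: with all annotated exons joined, *Cpe* (235 per kilobase) stood above *Chga* (129). It also differed between tumour classes. Per kilobase of the canonical transcript, *Chgb* (median 516) and *Chga* (458) stood above *Cpe* (339) in major clones, while *Cpe* (364) stood above *Chgb* (282) and *Chga* (271) in minor clones.

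The libraries carried the epithelial markers of their tissue, and their normalised counts summed to between 26140227 and 45909885. The summed normalised count of 8 epithelial markers lay between 167971 and 710311 in all groups. Of 14 enteric neuron markers, 6 had a mean of at least 10 in the clones (*Ret*, which is not restricted to neurons, *Stmn2*, *Tubb3*, *Nos1*, *Uchl1* and *Nefl*), while pan-neuronal *Elavl4* had a median of 0.68 in minor clones, 0.35 in major clones and 0 in undivided tumours. The sum of the list ranged from 867 to 2725 in minor clones, from 1138 to 2511 in major clones and from 215 to 3660 in undivided tumours. The median share of ribosomal RNA (*Rn18s*) in the summed normalised counts was 6.19% in minor clones, 3.11% in undivided tumours and 1.24% in major clones. One library stood apart, the minor clone of male tumour 19 (tumours are named by mouse and number). It was the lowest of 20 minor clones for 7 of the 8 genes, with *Scg5* the exception at second lowest, and *Rn18s* made up 14.2% of its counts. Its epithelial marker sum was the third lowest (280104, against 245842 to 588423 in the other minor clones).

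**Figure D1:**
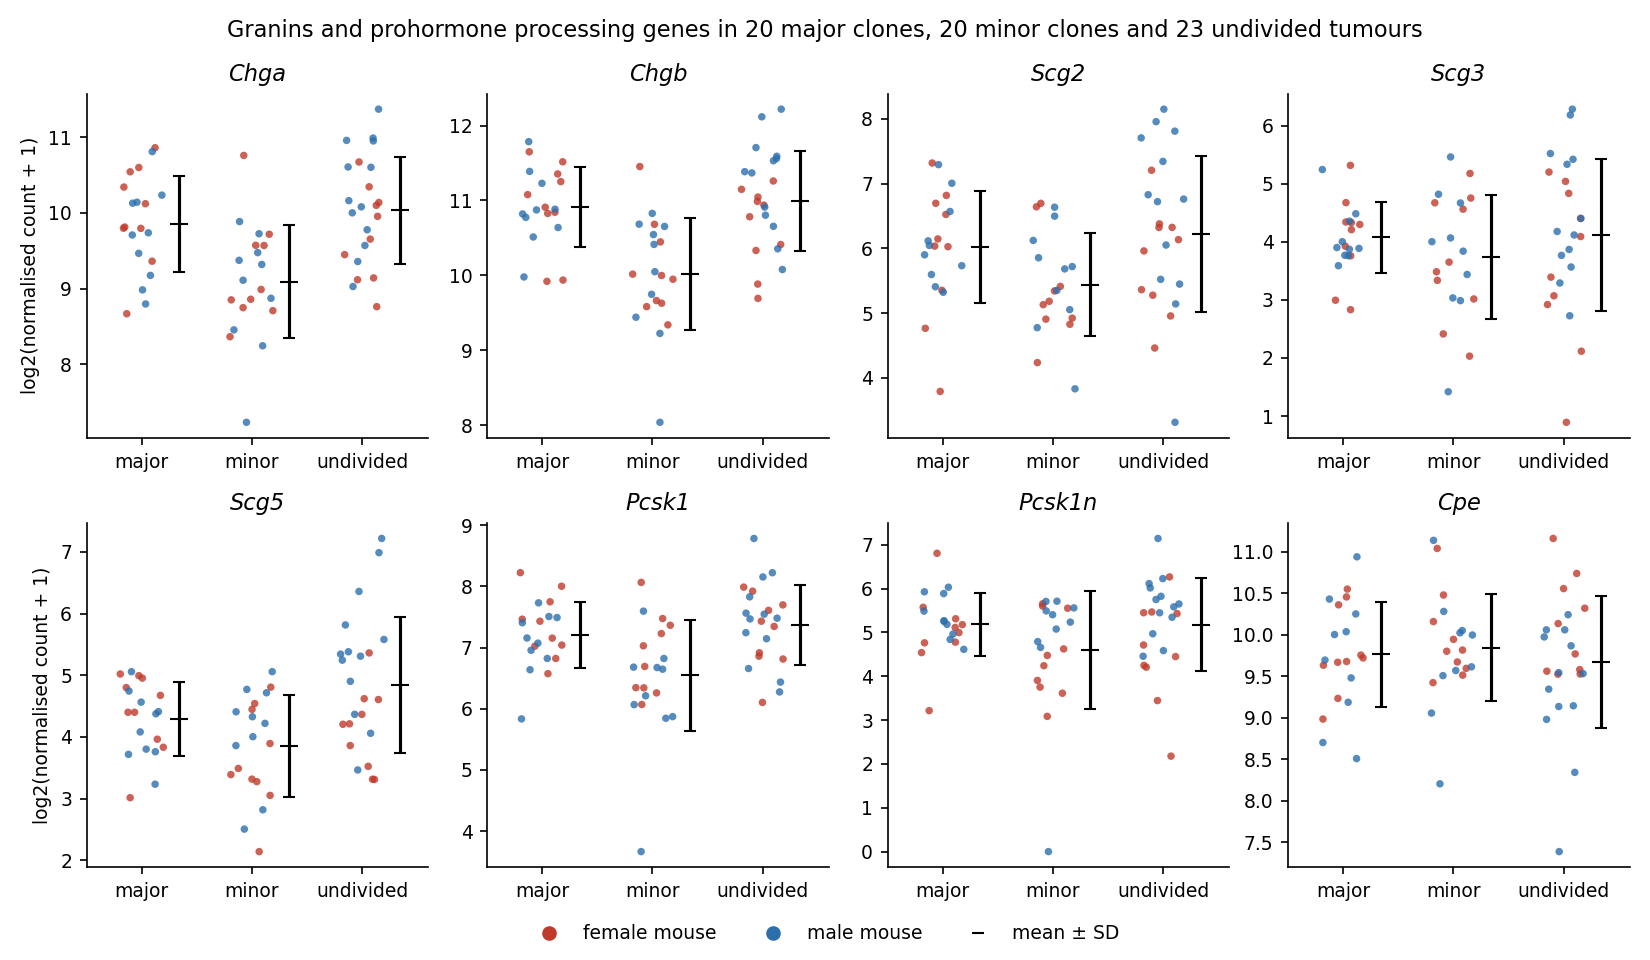
Normalised counts of the 8 genes, as log2(normalised count + 1), in each library of the 3 tumour classes, with red points for the female and blue points for the male mouse and the mean ± SD in black. *Chga* and *Chgb* sat lower in minor clones than in the other classes with overlapping ranges, *Cpe* had overlapping ranges in all 3 with medians of 764 to 896, and *Scg5* and *Scg2* reached their highest values in undivided tumours of the male mouse.

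The comparison of major with minor clones asked whether clones of unequal size within a tumour differ in endocrine gene expression. Of the 8 genes, *Chgb* was higher in major clones by the test across all genes (limma with the tumour as a block), at 1.85-fold, and 7 of the 8 had a positive mean difference. *Chga*, a widely used marker of enteroendocrine cells, just missed the threshold, while *Cpe* had nearly the same level in both clones. In bulk tissue, fewer endocrine cells and less RNA per cell cannot be told apart. Over all genes tested, 1.14% (188 of 16428) had an adjusted p under 0.05, against 1 of the 8. At an unadjusted p under 0.05 the counts were 22.4% of all genes and 6 of the 8. The median log2 difference was 0.58 for the 8 genes and 0.0074 for all genes tested.

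*Chgb* (ENSMUSG00000027350, chr2:132622464-132637904, plus strand, GRCm39), encoding chromogranin B, ranged from 967 to 3529 normalised counts in major clones (median 1882) and from 262 to 2802 in minor clones (median 1028). The ranges overlapped, the lowest value being the minor clone of male tumour 19 and the highest minor value that of female tumour 23. Within tumours the major clone was higher in 17 of 20, with log2 gaps from -0.53 to 2.85 and a median of 0.92. The log2 difference was 0.89 (SE 0.17, limma adjusted p = 0.0207), and an exact signed-rank test over tumours, adjusted over all genes, gave p = 0.0442. Without male tumour 19 it was 0.79 (limma adjusted p = 0.0258).

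*Chga* (ENSMUSG00000021194, chr12:102520484-102531300, plus strand, GRCm39), encoding chromogranin A, had 406 to 1857 normalised counts in major clones (median 893) and 150 to 1731 in minor clones (median 529). It was higher in the major clone of 15 of 20 tumours, with a log2 difference of 0.76 (SE 0.19, limma adjusted p = 0.0517). The study displayed this gene from the same samples, so its direction is not independent evidence. Of 13 alternatives other than leave-outs, 3 brought *Chga* under the threshold, among them scaling each library to the same sum (limma adjusted p = 0.0411) and quantile normalization (0.0422). The other 10 did not, with adjusted p up to 0.659. Among these 10 was the exact signed-rank test over tumours, with an adjusted p of 0.0803.

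The secretogranins were less abundant. *Scg2* (ENSMUSG00000050711, chr1:79412386-79417837, minus strand, GRCm39), the precursor of secretoneurin, ranged from 12.9 to 159 normalised counts in major clones (median 64.9) and from 13.2 to 103 in minor clones (median 39.7). The ranges coincided at their lower ends, and the log2 difference of 0.58 (SE 0.24), positive in 14 of 20 tumours, did not pass (limma adjusted p = 0.158). *Scg3* (ENSMUSG00000032181, chr9:75546929-75591396, minus strand, GRCm39), a granin that tethers granule contents to the membrane, ranged from 6.12 to 38.9 in major clones (median 14.6) and from 1.67 to 43.1 in minor clones (median 12.4), with nearly full overlap. It was higher in the major clone of 10 of 20 tumours, with a median gap of -0.04 and a mean log2 difference of 0.34 (SE 0.30, limma adjusted p = 0.534). The mean was 0.18 without female tumour 22, whose gap was 3.29, and 0.23 without male tumour 19. *Scg5* (ENSMUSG00000023236, chr2:113606688-113660094, minus strand, GRCm39), which encodes the chaperone 7B2 of the convertase PC2, ranged from 7.09 to 32.3 in major clones (median 20.1) and from 3.41 to 32.4 in minor clones (median 14.5). Its log2 difference was 0.44 (SE 0.21, limma adjusted p = 0.213), positive in 14 of 20 tumours.

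Among the processing genes, *Pcsk1* (ENSMUSG00000021587, chr13:75237284-75284898, plus strand, GRCm39), which encodes the convertase PC1/3, ranged from 56.0 to 298 normalised counts in major clones (median 142) and from 11.7 to 267 in minor clones (median 100.1). It was higher in the major clone of 16 of 20 tumours, by 0.66 on the log2 scale (SE 0.23), without passing the threshold (limma adjusted p = 0.104). *Pcsk1n* (ENSMUSG00000039278, chrX:7786043-7790649, plus strand, GRCm39), encoding the PC1/3 inhibitor proSAAS, ranged from 8.29 to 111 in major clones (median 35.3) and up to 51.5 in minor clones (median 29.7) and was listed at 0 in the minor clone of male tumour 19. Its log2 difference of 0.58 (SE 0.27, limma adjusted p = 0.202) was 0.355 without that tumour (adjusted p = 0.236). Without it, the differences of *Chga*, *Scg2*, *Scg5* and *Pcsk1* were 0.65, 0.45, 0.33 and 0.51, none of them past the threshold.

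*Cpe* (ENSMUSG00000037852, chr8:65045555-65146435, minus strand, GRCm39) ranged from 363 to 1964 normalised counts in major clones (median 835) and from 293 to 2254 in minor clones (median 896). The ranges coincided almost entirely, and the major clone was higher in 11 of 20 tumours. The log2 difference was -0.081 (SE 0.13, limma adjusted p = 0.744), with a 95% confidence interval from -0.34 to 0.18. The gap of *Chgb*, the gene with the highest mean gap, exceeded that of *Cpe*, the one with a negative mean gap, in 19 of 20 tumours, by 0.97 ± 0.73 on the log2 scale (SD, n = 20). This pair was chosen from the gaps themselves, so the values are a description.

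**Figure D2:**
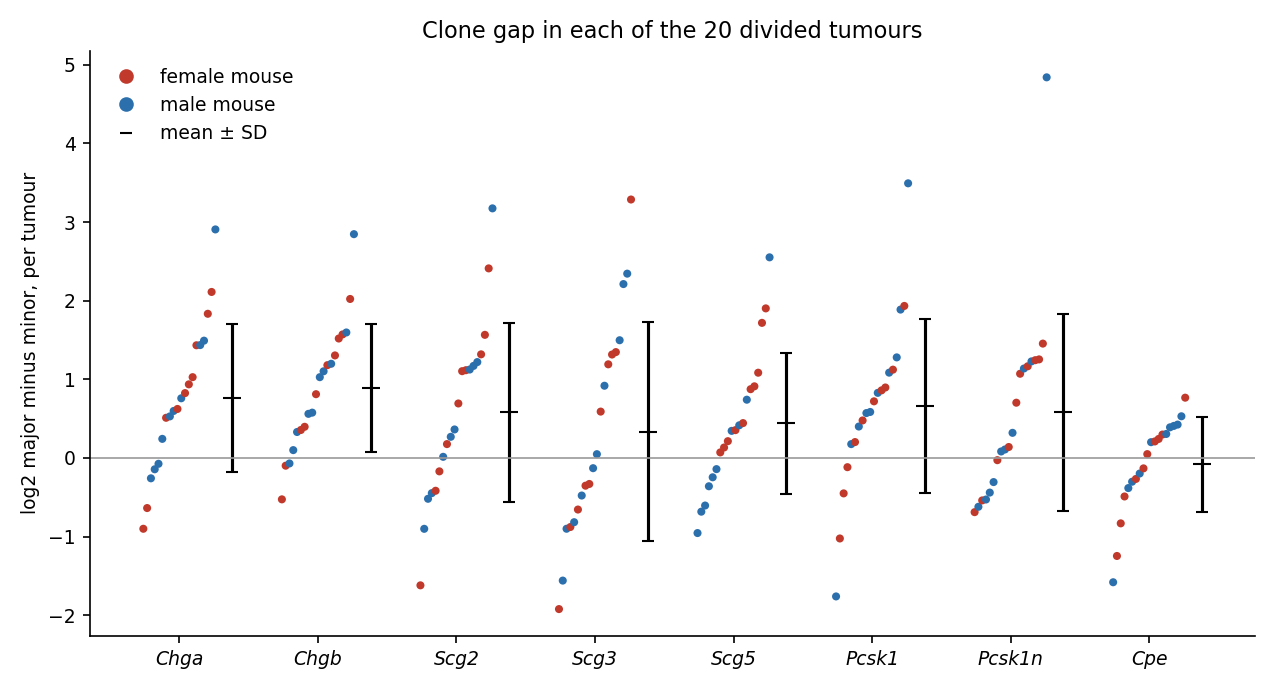
Log2 difference between the major and the minor clone (y axis) in each of the 20 divided tumours for the 8 genes (x axis), sorted within each gene, with the mean ± SD in black. *Chgb* was above 0 in 17 of 20 tumours, *Cpe* in 11 of 20, and the highest points of *Pcsk1n* (4.84), *Pcsk1* (3.49) and *Scg2* (3.17) belong to male tumour 19.

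The gap of *Chgb* was of similar size in both mice, 0.85 ± 0.81 in the female and 0.93 ± 0.85 in the male mouse (SD, n = 10 each). The gap of *Scg5* was positive in 10 of 10 tumours of the female mouse and in 4 of 10 of the male mouse. The difference between the mice was 0.66 on the log2 scale for *Scg5* (SE 0.40) and was not shown by the test (limma adjusted p = 0.701). Without male tumour 19, a fit added after the data had been seen, it was 0.94 (unadjusted p = 0.00915, limma adjusted p = 0.253). For this difference 0% of 16428 genes passed the adjusted threshold, and 7.65% of all genes and 0 of the 8 had an unadjusted p under 0.05. The gap was also compared between SI10 (7 tumours) and SI20 (10 tumours), leaving out the 2 tumours labelled SI30 and female tumour 22, whose major clone was labelled SI20 and whose minor clone SI10 and which had a *Chgb* gap of 2.02 and a *Scg2* gap of 2.41. There 0% of 16436 genes passed, and 4.06% of all genes and 0 of the 8 had an unadjusted p under 0.05. In SI20 the major clone had the higher *Pcsk1* in 10 of 10 tumours, and in SI10 in 4 of 7, a difference of -0.60 on the log2 scale (SE 0.52, limma adjusted p = 0.998). It was -1.14 without male tumour 19, an SI10 tumour (unadjusted p = 0.00664, limma adjusted p = 1).

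Other genes of the endocrine programme were read from lists. Of the hormones and enzymes of serotonin synthesis, 1 of 12 tested passed, *Tph1*, the rate-limiting enzyme of serotonin synthesis in the gut (log2 difference 0.72, SE 0.15, limma adjusted p = 0.0334), and 11 of 12 had a positive difference with a median of 0.41. Of the enteroendocrine transcription factors 1 of 11 passed, *Neurog3*, which starts the endocrine fate (0.92, SE 0.22, limma adjusted p = 0.0438). Of 28 tested genes of the granule membrane and exocytosis 1 passed, *Ptprn2*, a granule membrane phosphatase-like protein (0.51, limma adjusted p = 0.0438). Of 12 other prohormone processing enzymes 1 passed, *Pcsk5*, a widely expressed convertase (0.51, limma adjusted p = 0.0368), with 7 of 12 positive and a median of 0.070. These counts stand beside the 1.14% of all genes given above.

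Markers of other cells were read in the same fit. Of the 12 fibroblast and muscle markers 0 passed the adjusted test, while 10 had an unadjusted p under 0.05 and 11 had a positive difference, the median being 0.63 on the log2 scale. Their sum ranged from 2110 to 28477 in major and from 2007 to 27516 in minor clones. The most abundant, *Col3a1*, had a log2 difference of 0.66, *Col1a1* of 0.74 and *Dcn* of 0.56. Of 9 goblet and Paneth markers 1 passed (*Clca1*, a goblet cell product, 0.70, limma adjusted p = 0.0465), with a median of 0.49, and of 6 immune markers 0 passed, with a median of 0.43. Neuron markers had a median of -0.060 (0 of 6 passed), the 2 tested glia markers of 0.012 (0 passed), endothelial markers of 0.14 (0 of 6 passed) and epithelial markers, among them *Krt8*, *Krt19* and *Krt20*, of 0.115 (0 of 8 passed). The part of the stromal, goblet, Paneth and immune markers in the granin differences was not tested. With *Rn18s* as a covariate the *Chgb* difference was 1.16 (limma adjusted p = 0.134) and 1 of all genes passed, so that the call was lost while the difference was larger. The *Chgb* call was also lost in the female mouse alone (0.85, limma adjusted p = 0.659), in the male mouse alone (0.93, 0.0843) and without the tumour block (0.89, 0.152).

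Undivided tumours were compared with each clone class, with mouse as a covariate. Both comparisons use the same 23 undivided tumours, so they are not independent of each other. The clones had been microdissected and the undivided tumours had not, so tumour class and dissection cannot be told apart. Against major clones, 0 of the 8 genes passed the adjusted test in limma and 0 had an unadjusted p under 0.05, beside 0.0121% (2 of 16510) and 12% of all genes. Against minor clones, 4 of the 8 passed, all higher in undivided tumours (*Chga*, *Chgb*, *Scg5* and *Pcsk1*), and 5 had an unadjusted p under 0.05, beside 3.7% (610 of 16491) and 19.6% of all genes. The count over all genes ran from 274 without the minor clone of male tumour 26 to 959 without that of female tumour 19. The median log2 difference of the 8 genes was 0.11 against major and 0.79 against minor clones, beside -0.0097 and -0.015 for all genes tested.

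*Chgb* had 826 to 4768 normalised counts in undivided tumours (median 2029). It exceeded minor clones by 0.95 on the log2 scale (SE 0.21, limma adjusted p = 0.0107), and its difference from major clones was 0.061, with a 95% confidence interval from -0.30 to 0.42. *Chga* had 433 to 2644 normalised counts (median 1081). Its differences were 0.93 from minor clones (SE 0.22, limma adjusted p = 0.0155) and 0.17 from major clones (95% confidence interval -0.24 to 0.58). Both granins kept a call against minor clones when any 1 of the 43 libraries was left out, with adjusted p from 0.00263 to 0.0265.

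*Pcsk1* had 67.8 to 440.0 normalised counts in undivided tumours (median 176), and its difference from minor clones was 0.84 (SE 0.24, limma adjusted p = 0.037). *Scg5* had 8.93 to 148 (median 23.6), a range that reached far above both clone classes, whose highest values were 32.3 and 32.4. Its differences were 0.94 from minor clones (SE 0.27, limma adjusted p = 0.0424) and 0.52 from major clones (SE 0.26, limma adjusted p = 0.428). These calls were marginal: leaving out 1 library took *Scg5* past the threshold in 21 of 43 cases and *Pcsk1* in 12 of 43, with adjusted p up to 0.0697 and 0.0651. Without the minor clone of male tumour 19 the differences were 0.83 for *Scg5* (adjusted p = 0.0697) and 0.68 for *Pcsk1* (0.0494). *Scg5* thus lost its call there and *Pcsk1* kept it. Adding the segment as a covariate took both past the threshold (limma adjusted p = 0.086 for *Scg5* and 0.0651 for *Pcsk1*).

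The other 4 genes did not pass against minor clones. *Scg2* ranged from 8.95 to 283 in undivided tumours (median 79.1), and its difference was 0.75 (SE 0.30, limma adjusted p = 0.151). Without undivided male tumour 18, which had the lowest *Scg2* of the undivided tumours, it was 0.89 (adjusted p = 0.0489). *Pcsk1n* had a difference of 0.52 (limma adjusted p = 0.43) and *Scg3* of 0.34 (0.66). Without the minor clone of male tumour 19 they were 0.24 and 0.19. *Cpe* ranged from 166 to 2290 (median 764), with differences of -0.14 from minor clones (limma adjusted p = 0.771) and -0.063 from major clones (0.918).

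**Figure D3:**
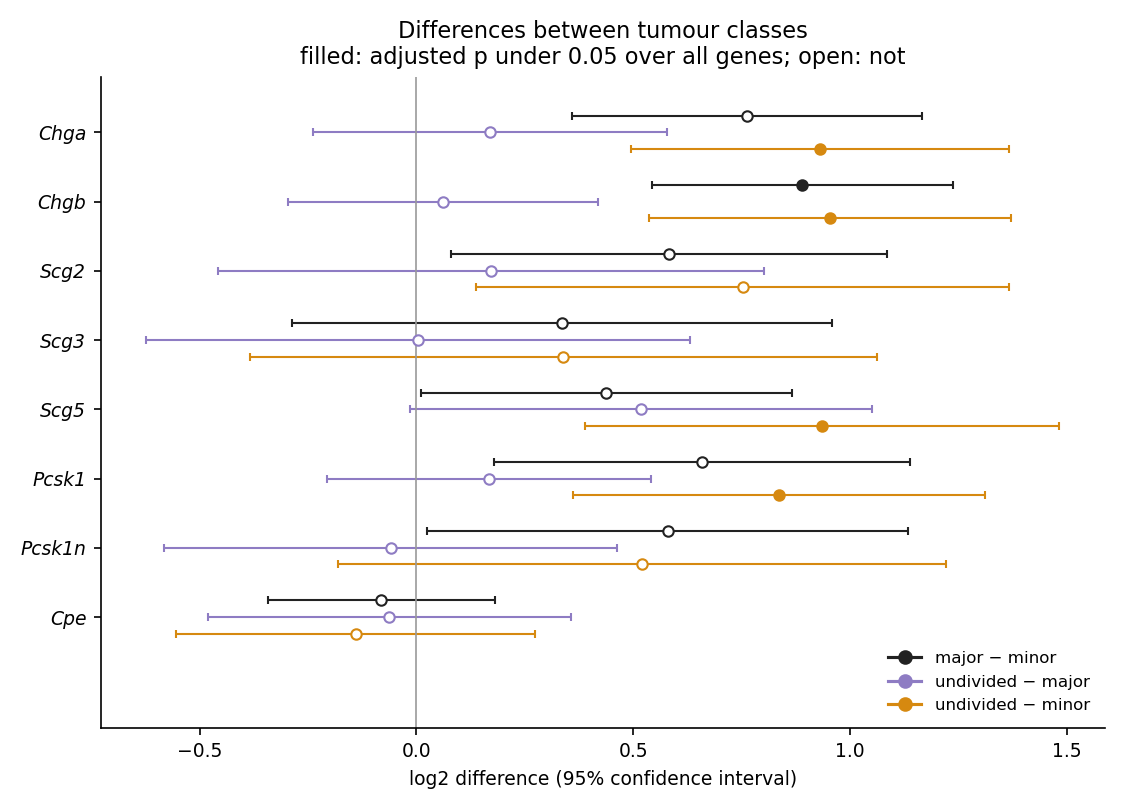
Log2 differences between the tumour classes (x axis) for the 8 genes (y axis), with 95% confidence intervals, for major minus minor clones (black), undivided tumours minus major clones (purple) and undivided tumours minus minor clones (orange). Filled points, *Chgb* in black and *Chga*, *Chgb*, *Scg5* and *Pcsk1* in orange, had an adjusted p under 0.05, and all intervals of undivided minus major include 0.

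Other lists against minor clones were read in the same fit. Of the hormones and serotonin enzymes 4 of 12 passed, all higher in undivided tumours: *Tph1* (1.13), *Sst*, encoding somatostatin (1.07), *Cck*, encoding cholecystokinin (0.87), and *Sct*, encoding secretin (0.83). Of the endocrine transcription factors 2 of 13 passed, *Fev* (1.16) and *Lmx1a* (1.10), both known in serotonin-producing cells. Both lay near the filter, with means of 11.4 and 12.2 over all libraries, and did not enter the test of major against minor clones. They entered this test through the undivided tumours, the group in which they were higher, so their calls are a description. Of the granule list 1 of 28 passed, *Resp18* (1.12), while 14 of 28 had a positive difference, with a median of -0.0042. Of the other processing enzymes 2 of 12 passed and were lower, the amidating enzyme *Pam* (-0.45, limma adjusted p = 0.0304) and the cathepsin *Ctsl* (-0.78, limma adjusted p = 0.0107). In this list 7 of 12 had a positive difference, with a median of 0.043. Of the neuron markers 1 of 6 passed, the neuronal tubulin *Tubb3*, which was lower (-1.35), and 5 of 6 had a negative difference, with a median of -0.96. Of the immune markers 1 of 6 passed, *Cd3e* of T cells, which was higher (0.94), and 6 of 6 had a positive difference, with a median of 0.56. Endothelial *Cdh5* was lower (-1.12; 1 of 6 passed, median -0.21) and goblet cell *Clca1* higher (0.97; 1 of 9 passed, median -0.0089). The fibroblast and muscle markers had a median of -0.050, with 0 of 12 passing, the epithelial markers of 0.024 (0 of 8) and the 2 tested glia markers of 0.17 (0 passing). The part of the neuron and immune markers in the granin differences was not tested. Against major clones 0 genes of these lists passed, and the fibroblast and muscle markers had a median of -0.71.

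The 2 mice differed in these values. In the male mouse *Scg5* had a median of 39.6 in undivided tumours (10.0 to 148), 17.9 in major and 18.4 in minor clones. In the female mouse the medians were 17.5 in undivided tumours (8.93 to 40.2), 22.3 in major and 9.86 in minor clones. The 6 highest undivided values, 40.7 to 148, were all from the male mouse, and the values of both mice overlapped below them. The difference of undivided tumours from major clones was 1.21 in the male and -0.27 in the female mouse for *Scg5*. The interaction, tested after these values had been seen, was -1.48 (SE 0.48, unadjusted p = 0.00391, limma adjusted p = 0.265). At an unadjusted p under 0.05, 2 of the 8 genes (*Chga* and *Scg5*) and 11.6% of all genes differed between the mice in this comparison, and 0 of the 8 and 12.7% in that with minor clones. No gene of the table passed the adjusted test for either interaction, with lowest adjusted p of 0.205 and 0.148. Against minor clones, *Chga* and *Chgb* differed by 0.52 and 0.57 in the female mouse alone (limma adjusted p = 0.603 and 0.523) and by 1.296 and 1.29 in the male mouse alone.

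Among the 23 undivided tumours, which are separate tumours of the same 2 mice, most of the genes varied together, while *Cpe* did so less in the pooled values. Of all 28 pairs, 20 had an adjusted p under 0.05 for Pearson's r of log2(normalised count + 1) (100000 permutations, two-sided, Benjamini-Hochberg over the 28 pairs), and 19 for Spearman's rho. *Chga* and *Chgb* were the closest pair, with r = 0.87 and rho = 0.87 (permutation p = 1e-05 for each, the smallest that can be given, adjusted p = 0.00028 for r). The value was r = 0.93 in the female mouse (10 tumours), 0.81 in the male mouse (13 tumours) and 0.81 without the 2 tumours farthest from the median of *Chga*. Next came *Chga* with *Scg5* (r = 0.80, rho = 0.81, permutation adjusted p = 0.00028 for r) and *Chgb* with *Scg5* (r = 0.78, rho = 0.84, 0.00028), with r = 0.78 and 0.77 without the 2 farthest tumours. These 2 values pool mice with different *Scg5* levels. They were 0.54 and 0.56 in the female mouse (unadjusted permutation p = 0.11 and 0.0938) and 0.87 and 0.79 in the male mouse.

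*Pcsk1* had r = 0.715 with *Chga* (rho = 0.67, permutation adjusted p = 0.000616 for r) and 0.64 with *Chgb* (rho = 0.58, 0.00264), and 0.63 and 0.515 without the 2 farthest tumours. In the female mouse these were 0.55 and 0.67 (unadjusted permutation p = 0.0993 and 0.0331), and in the male mouse 0.82 and 0.65. Its correlation with its inhibitor *Pcsk1n* was weaker, r = 0.50 (rho = 0.36, permutation adjusted p = 0.0207 for r). It fell to 0.14 without the 2 tumours farthest from the median of *Pcsk1*, so that the pooled value rests on them. Within the mice r was 0.50 in the female and 0.57 in the male mouse. Over all 63 libraries, centred within tumour class and mouse, it was 0.61. Those libraries include the minor clone of male tumour 19, the lowest minor clone for both genes. *Scg2* and *Scg3* had r = 0.36 (permutation adjusted p = 0.123) and rho = 0.53 (0.0147), and r = 0.69 without the 2 farthest tumours. For *Cpe*, 0 of 7 pairs passed by either coefficient, and r ran from -0.28 with *Scg5* to 0.33 with *Scg2*. These values pool the mice, whose undivided tumours had mean *Cpe* levels of 1177 in the female and 733 in the male mouse. Within the male mouse, *Cpe* had r = 0.67 with *Scg2* (permutation p = 0.0144, unadjusted), a pair among the 13 that passed there, and 0.61 with *Pcsk1n* (permutation p = 0.0290, unadjusted), and r with *Scg5* was 0.017. Within the female mouse, r of *Cpe* ran from -0.081 with *Scg5* to 0.36 with *Chgb*. Over all 63 libraries, centred within tumour class and mouse, the 7 values of *Cpe* were positive, from 0.11 with *Scg5* to 0.43 with *Scg2*. Within the mice, 5 of 28 pairs passed by Pearson's r in the female and 13 of 28 in the male mouse. By Spearman's rho, 1 of 28 passed in the female and 14 of 28 in the male mouse. The median r over the pairs was 0.52 and 0.60, against 0.63 over all undivided tumours. The libraries share their scaling, and the count of pairs was 19 when each library was scaled to the same sum.

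**Figure D4:**
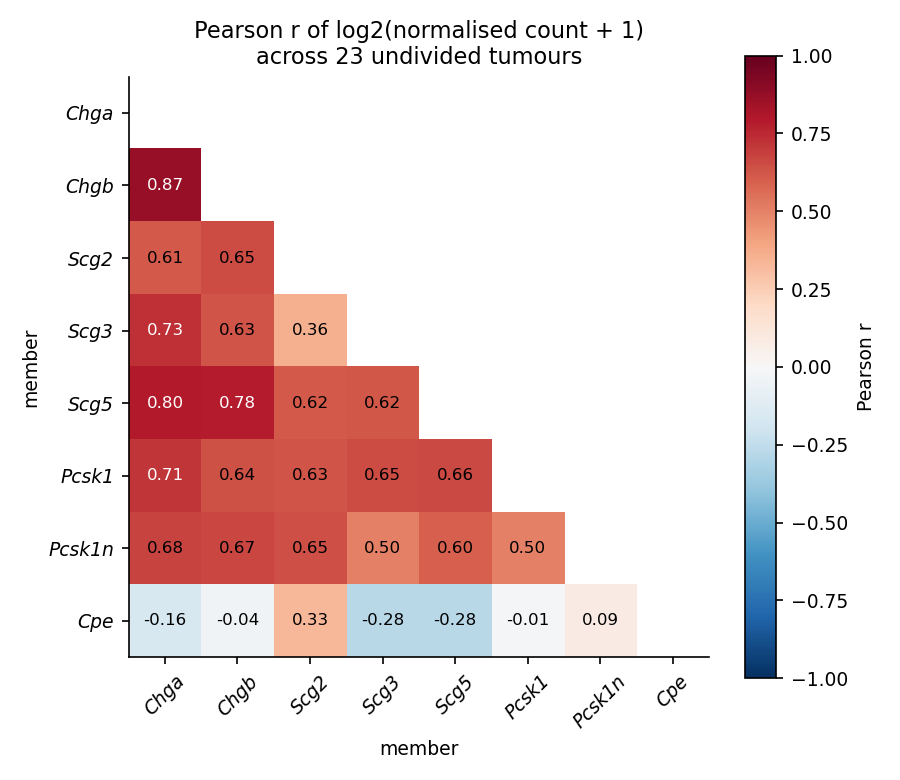
Pearson correlation of log2(normalised count + 1) between the 8 genes across 23 undivided tumours, with r printed and coloured from -1 (blue) to 1 (red). The 21 pairs without *Cpe* had r between 0.36 and 0.87, and the bottom row, *Cpe*, ran from -0.28 to 0.33 over both mice, while in the male mouse alone it reached 0.67 with *Scg2*.

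Over all 63 libraries, with each value centred within tumour class and mouse, the genes most like each member were ranked among 16488 genes, as a description. *Chga* was most like *Chgb* (r = 0.89), followed by *Slc5a1*, the intestinal sodium-glucose cotransporter (0.81), and *Sis*, the brush border enzyme sucrase-isomaltase (0.81). *Chgb* was next most like *Malrd1* (0.81) and *Gm11437* (0.81). *Scg2* was closest to the hormone gene *Cck* (0.77), then *Prrx1* (0.76) and *Cyp2c68* (0.76). *Scg3* was closest to *Prlr* (0.69), *Cndp1* (0.66) and *Slc5a11* (0.64), and *Scg5* to *Gstt1* (0.67), *Cnksr3* (0.66) and *Ugt2b35* (0.66).

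The processing genes had other neighbours. *Pcsk1* was closest to *Ccl6* (0.71), the endocrine transcription factor *Neurod1* (0.66) and *Myrfl* (0.66). *Pcsk1n* was closest to *Pik3r5* (0.71), the tachykinin precursor *Tac1* (0.70) and *2810459M11Rik* (0.69). *Cpe* was closest to *Kalrn*, a guanine nucleotide exchange factor (0.71), to ENSMUSG00000121208, which has no symbol in the table (0.69), and to *Klf4*, a transcription factor of differentiating epithelium (0.68). Against the mean of each list, *Chga* had r = 0.82 with the hormones and serotonin enzymes, 0.67 with the granule list and 0.60 with the endocrine transcription factors. It had 0.46 with the goblet and Paneth markers, 0.45 with the immune markers and -0.060 with the neuron markers. *Cpe* had its highest value with the other processing enzymes (0.66), and 0.46 with the endothelial, 0.43 with the neuron, 0.39 with the endocrine transcription factor, 0.36 with the hormone and 0.27 with the granule list. These libraries share their mouse and the clones of a tumour share their surroundings.

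Segment labels were compared among undivided tumours (12 SI10, 11 SI20) with mouse as a covariate. Of the 8 genes, 8 had higher means in SI10, and 0 passed the adjusted test in limma, beside 0.17% (28 of 16511) of all genes, a count that ran from 5 to 53 when 1 tumour was left out (without female tumours 10 and 6). At an unadjusted p under 0.05 there were 3 of the 8 (*Scg2*, *Scg5* and *Chgb*) and 7.62% of all genes. *Scg2* ranged from 34.3 to 283 normalised counts in SI10 (median 126) and from 8.95 to 113 in SI20 (median 44.97), and the groups overlapped. Its log2 difference was 1.23 (SE 0.40, limma adjusted p = 0.432). *Scg5* ranged from 15.7 to 148 in SI10 (median 39.9) and from 8.93 to 55.4 in SI20 (median 19.6), a log2 difference of 0.92 (SE 0.34, limma adjusted p = 0.517). *Chgb* had medians of 2562 and 1611, a log2 difference of 0.58 (SE 0.21, limma adjusted p = 0.53).

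The log2 difference of *Scg2* was 0.74 in the female and 1.61 in the male mouse alone, and that of *Scg5* was 0.82 and 0.996. Of the hormones and serotonin enzymes 0 of 12 passed and the median was 0.81, with 8 of 12 positive. At an unadjusted p under 0.05, 7 were higher in SI10 and *Gcg*, encoding proglucagon, was lower (-1.297 on the log2 scale). The fibroblast and muscle markers had a median of -0.77 (0 of 12 passed), and their part in the granin differences was not tested.

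Divided tumours did not show the same order. With the log2 values of both clones averaged per tumour (7 SI10, 10 SI20), 1 of the 8 genes, *Scg3*, had a positive difference, 0 passed and 0 had an unadjusted p under 0.05, beside 0.28% (46 of 16436) and 14.3% of all genes. The count of 46 ran from 13 without female tumour 19 to 215 without female tumour 23. The log2 difference was -0.22 for *Scg2* (SE 0.28), -0.18 for *Scg5* (SE 0.25), -0.30 for *Chgb* (SE 0.23) and -0.34 for *Chga* (SE 0.23). Without male tumour 19 the last 2 were -0.16 and -0.26. The difference between the segment effects of undivided and divided tumours was tested after these signs had been seen. It was 1.44 for *Scg2* (SE 0.55, unadjusted p = 0.0119), 1.10 for *Scg5* (SE 0.49, p = 0.0311), 0.88 for *Chgb* (SE 0.35, p = 0.0164) and 0.80 for *Chga* (SE 0.39, p = 0.0465), all with a limma adjusted p of 1. At that unadjusted threshold, 4 of the 8 genes (2 without male tumour 19, *Scg2* and *Chgb*) and 1.6% of 16205 genes differed, and no gene passed the adjusted test.

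**Figure D5:**
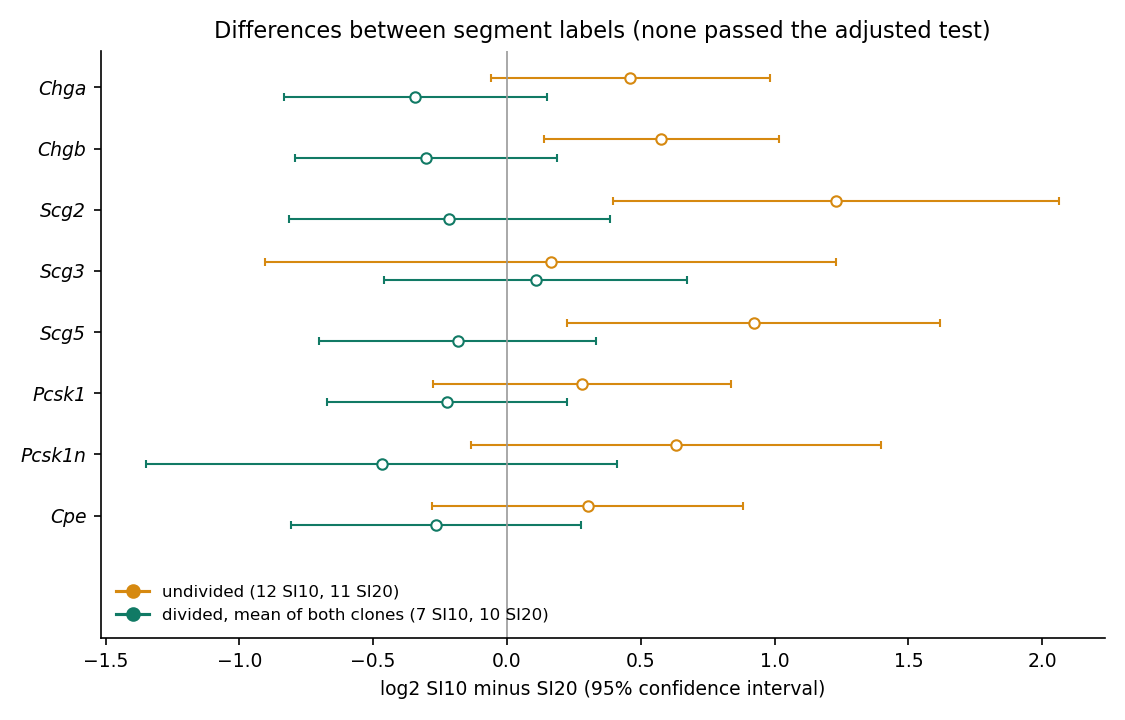
Log2 difference between SI10 and SI20 (x axis) for the 8 genes (y axis) with 95% confidence intervals, in undivided tumours (orange) and in divided tumours with both clones averaged (green). All 8 orange points are above 0 and 7 of the 8 green points are below 0, *Scg3* being the exception, and no point passed the adjusted test.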

How the data were processed

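The deposited values were normalised counts, a signal per gene: per the study's methods and the labels, the authors trimmed reads of stranded poly(A) libraries (Trimmomatic 0.39), estimated gene counts with Salmon 1.9.0 against Gencode M30 and scaled them between libraries. The scaling method is not given in the sources used here. Whole reads could not be recovered, so depth is unknown and no count model was used. Undivided tumours were recognised by titles without a clone letter, and major and minor by the class the study's source data give for each title. Genes with a mean of at least 10 were tested on log2(value + 1), so that differences of low genes are understated, with limma 3.58.1 (eBayes with trend, R 4.3.3). Adjusted p-values are Benjamini-Hochberg over all genes, with a threshold of 0.05. The fits were tested on simulated data. The clones of a tumour come from the same tumour, and their deviations correlated with a median r of 0.26, above 0.1 in 17 of 20. The deviations were taken over both mice and so include differences between mice. Clones of different tumours were not compared. Named genes are the 8 members, list genes that passed in a main comparison (otherwise the most abundant), and the 3 nearest neighbours of each member. The members and lists were chosen with earlier results of these data known. Alternatives were other pseudocounts, filters, scalings and covariates, each mouse alone and leaving out libraries.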

Additional observations from a re-analysis of the deposited data

Results flagged for a closer look

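Within each mouse and class, and for the clone gap within each mouse, 56 groups of 10 were screened for a value far from the others (Dixon's criterion, 0.466 for 10 values). The 13 undivided tumours of the male mouse were not screened, as the screen took groups of up to 10 values. Chance gives about 1 in 20 groups, but the groups are not independent, since the gaps reuse the values of the clones. In all 6 values were found, and 5 of them belong to male tumour 19. Its minor clone had the lowest *Pcsk1* of the male minor clones (3.66 as log2(value + 1), the next being 5.84) and the lowest *Pcsk1n*, listed at 0 (0.0000 on that scale, the next being 4.66). Its clone gaps were the highest of the male mouse for *Pcsk1n* (4.84, the next 1.23), *Scg2* (3.17, the next 1.22) and *Scg5* (2.55, the next 0.74). In that minor clone *Rn18s* made up 14.2% of the summed normalised counts, beside up to 15.6% in the other minor clones. It had 20182 genes above 0, the fewest of the 20 minor clones (20381 to 22666 in the others). Its sums of fibroblast, endothelial, immune, neuron, and goblet and Paneth markers and of the other processing enzymes were the lowest. Counted from the lowest, its hormone sum ranked 4 and its endocrine transcription factor sum 13. The part of these in the flagged values was not tested. The lowest *Cpe* gap of the male mouse was -1.58, in tumour 29, the next being -0.38.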

How the results depend on the processing

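For major against minor clones, the count of 1 called gene, *Chgb*, became 2 under quantile normalization, under a filter at a mean of 50 and when all libraries were brought to the same sum, *Chga* being added. It became 0 in the female or the male mouse alone, with *Rn18s* as a covariate, in SI10 and SI20 tumours only, and without the replicate block by tumour. Leaving out 1 tumour gave 1 to 2, with *Chgb* called each time and *Chga* in 5 of 20 (without female 19, 23, 28 or 29 or male 31). Over all genes the count of 188 ranged from 25 without male tumour 20 to 859 without female tumour 19 and was 0 without the block. Against minor clones, the count of 4 for undivided tumours became 2 with no filter, with the same sum, with mouse and segment as covariates, in SI10 and SI20 only and with undivided tumours 1 to 10 only, and 0 in the female mouse alone. Leaving out 1 library gave 2 to 5, and 2 for 11 libraries (minor clones female 20, 22 and 30 and male 26, 27, 28 and 29, and undivided female 5 and male 2, 5 and 17). *Chga* and *Chgb* were the genes called in each of the leave-outs. Of 28 correlations, 20 passed by Pearson's r in all, 5 in the female and 13 in the male mouse alone. No member was called in the other comparisons under any alternative run. A limit on all values is that depth is unknown and that each mouse is 1 animal, and low genes such as *Scg3* are the least precise.

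Directions changed for uncalled values alone, and the cause was not tested. *Cpe*, major minus minor, was 0.0070 with *Rn18s* as a covariate. For undivided minus major, *Scg3* was -0.045 with pseudocount 0.1, -0.082 with the same sum, -0.47 in the female mouse, -0.11 with *Rn18s*, -0.075 with mouse and segment, -0.045 in SI10 and SI20 and -0.24 with undivided tumours 1 to 10. *Pcsk1n* was 0.016 with quantile normalization, 0.28 in the male mouse and 0.0089 with *Rn18s*. *Chgb* was -0.029 with the same sum, -0.28 in the female mouse and -0.014 with mouse and segment, where *Scg2* was -0.013. In the female mouse *Chga* was -0.26, *Scg2* -0.11, *Scg5* -0.27, *Pcsk1* -0.080 and *Cpe* 0.28. *Cpe* was 0.079 with *Rn18s* and 0.058 with undivided tumours 1 to 10. Leave-outs ran from -0.0006 to 0.12 for *Chgb*, -0.081 to 0.15 for *Scg3*, -0.14 to 0.072 for *Pcsk1n* and -0.13 to 0.029 for *Cpe*. For undivided minus minor in the female mouse, *Scg3* was -0.11 and *Cpe* 0.14. For SI10 minus SI20 of undivided tumours, *Scg3* was -0.60, *Pcsk1* -0.15 and *Cpe* -0.021 in the female mouse, and *Scg3* was -0.024 with *Rn18s* and -0.019 to 0.45 in the leave-outs. For divided tumours, the female mouse gave 0.075 for *Chga*, 0.15 for *Chgb*, 0.055 for *Scg2*, 0.032 for *Pcsk1n* and 0.35 for *Cpe*, the male mouse gave -0.35 for *Scg3*, major clones gave 0.10 for *Scg2* and 0.16 for *Scg5*, and minor clones gave -0.21 for *Scg3* and 0.074 for *Pcsk1*. The gap of *Pcsk1n*, female minus male, was 0.13 with pseudocount 5 and 0.17 with quantile normalization. Without male tumour 19 (added after seeing the data), the gap in SI10 minus SI20 was -0.15 for *Chga* and -0.36 for *Pcsk1n*, the gap in the female minus the male mouse was 0.14 for *Chgb* and 0.47 for *Pcsk1n*, and the segment effect in undivided minus divided tumours was -0.23 for *Scg3*.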

Other observations

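A few genes of the granule system were close to absent. *Pcsk2*, the second endocrine convertase, whose chaperone *Scg5* encodes, was listed at 0 in 12 of 20 minor clones, 3 of 20 major clones and 6 of 23 undivided tumours, with a highest value of 50.4 normalised counts in an undivided tumour, and did not enter the test of major against minor clones. The granin-related *Vgf* had a median of 6.43 in undivided tumours, 8.00 in major clones and 3.89 in minor clones.

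The 2 tumours labelled SI30 entered no segment comparison. Both came from the female mouse. The major clones had 657 and 898 normalised counts of *Chga* and the minor clones 461 and 507. *Chgb* gaps averaged 0.77 ± 0.58 and *Pcsk1n* gaps 1.20 ± 0.055 on the log2 scale (SD, n = 2), and *Cpe* was lower in the major clone of both.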
